A study of Rattus norvegicus with 4 samples.

Results

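The 10 genes described here code for the folding machinery of the endoplasmic reticulum (ER) and for the sensors that watch over it. They are the chaperone genes Hspa5, Hsp90b1, Calr, Canx, Pdia3, Pdia4 and Dnajb9, the sensor genes Atf6 and Ern1, and Xbp1, the transcription factor gene that acts downstream of Ern1. They were chosen by name and found through the transcript accession of each probe on the array, which gave 12 probes for the 10 genes, among 16579 named genes that had a measurement. RNA came from NR8383, an alveolar macrophage line that was established by lavage of the lung of a healthy rat, after 20 passages. The cells were seeded in 25 cm2 flasks for 48 h and carried 1 treatment, TiO2 (titanium dioxide, material NRCWE001) for 4 h at a dose labelled 3 cm2/cm2. All 4 cultures (replicates 1 to 4) belong to this exposed group and each has its own one-colour array, all on 1 slide. Unexposed cells were not analysed here, and no value below is an effect of the particles. Each culture had its own array, so a difference between cultures and a difference between arrays cannot be told apart, and the results hold for 1 cell line.

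Proteins that enter the ER fold there with the help of chaperones, which hold unfolded chains, read their sugars or join their cysteines. When unfolded protein accumulates, sensors in the ER membrane set off the unfolded protein response (UPR). The kinase and endonuclease IRE1, made from Ern1, splices the Xbp1 transcript, ATF6 is cut free to enter the nucleus as a transcription factor, and PERK, made from Eif2ak3, slows translation. XBP1 and ATF6 then raise the transcription of chaperone genes through a promoter motif called the ER stress element. Macrophages make and secrete much protein, and the IRE1 arm is known to be active in them under inflammatory stimulation.

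The motif is what several of these genes are known to share in their promoters, so their start regions are shown first. Start windows of 250 bases before and 50 bases after the annotated start came from the RefSeq table of the rat assembly GRCr8, which holds 7 of the 10 members. Pdia3, Atf6 and Ern1 had no entry. The motifs searched, on both strands and with no mismatch, were the ER stress element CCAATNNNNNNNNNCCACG, the shorter ER stress element II ATTGGNCCACG and the UPR element core TGACGTG, where N is any base. The ER stress element was found in 5 of the 7 member windows, those of Hspa5, Hsp90b1, Calr, Canx and Xbp1, and in 21 of the 27457 windows of the whole table (0.0765%). The motif was searched because several of these genes are known to share it, so this contrast is no independent result about the members. The stretches around each match follow, 5′ to 3′ on the strand of the gene and upstream of the start, with the fixed letters of the motif in capitals. On the other strand the motif reads with its CCAAT box as ATTGG.
Hspa5, chr3:38452953-38453011, plus strand: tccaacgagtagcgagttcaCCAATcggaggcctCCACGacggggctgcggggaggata
Hsp90b1 first match, chr7:23012431-23012489, minus strand: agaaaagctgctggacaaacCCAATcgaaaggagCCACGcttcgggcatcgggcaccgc
Hsp90b1 second match, chr7:23012327-23012385, minus strand: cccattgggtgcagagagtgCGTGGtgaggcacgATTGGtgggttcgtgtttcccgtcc
Calr, chr19:40213117-40213173, plus strand: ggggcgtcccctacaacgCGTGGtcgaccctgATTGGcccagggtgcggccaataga
Canx, chr10:35158049-35158107, minus strand: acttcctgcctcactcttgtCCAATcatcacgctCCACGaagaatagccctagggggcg
Xbp1, chr14:84604538-84604596, plus strand: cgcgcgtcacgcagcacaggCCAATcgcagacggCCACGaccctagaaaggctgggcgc

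The matches lay at different distances from the start. In Hspa5 the motif began 43 bases before the start and in Xbp1 65 bases before it, while in Calr and Canx it began 232 and 230 bases before it. Hsp90b1 held 2 matches, beginning 176 bases before the start and, on the other strand, 72 bases before it. The closest stretch in Pdia4 differed from the motif in 1 of its 10 fixed letters and the closest in Dnajb9 in 2, and they are shown for comparison with the letters that match in capitals.
Pdia4, chr4:78153254-78153312, minus strand: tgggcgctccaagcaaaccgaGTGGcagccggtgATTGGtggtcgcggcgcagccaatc
Dnajb9, chr6:67002132-67002190, minus strand: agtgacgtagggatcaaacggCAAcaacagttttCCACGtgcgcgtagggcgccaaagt

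The UPR element core was found in 1 of the 7 windows, that of Hspa5, beginning 135 bases before the start, against 1.88% of all windows. ER stress element II was found in 0 of the 7, against 0.0546% of all windows. No match of one motif overlapped a match of another in the members. A match is a run of letters and says nothing of binding in these cells, and no match says only that these letters are not in this window.

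**Figure D1:**
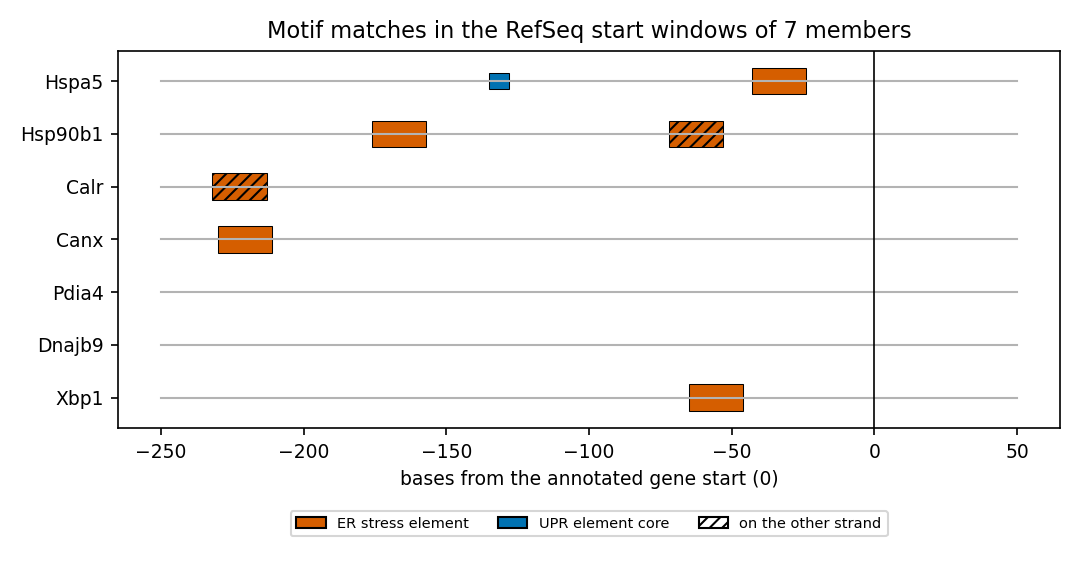
Motif matches with no mismatch in the start windows of the 7 members with a RefSeq entry. The horizontal axis gives bases from the annotated start, orange bars are the ER stress element, the blue bar is the UPR element core, and hatched bars lie on the other strand. Of the 7 windows, 5 hold an ER stress element, all of them before the start.

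Transcripts of 9 of the 10 genes were well above background on all 4 arrays, by the flag that the scanner software sets for each spot. Over all 16579 genes the share was 45.7%. All 7 chaperone genes were detected, and so were Atf6 and Xbp1. Ern1 was the exception. The 75th percentile of the processed signal, to which every level below is scaled, was 433, 347, 554 and 414 intensity units on replicates 1 to 4, over local backgrounds of 36 to 41 units, and no spot was saturated. A level is therefore log2 of the signal relative to that percentile, and levels of different probes are set side by side without being ranked, since probes differ in how brightly they bind. Markers of the labelled cell type bear on what was sampled. Of 8 macrophage markers, 5 were detected on all arrays, with Cd68 at 4.62 ± 0.14 (SD, n = 4) and Csf1r at -0.53 ± 0.09, while Adgre1, Cd163 and Marco, named after their values were seen, were not well above background. Of markers of other cells, 1 of 7 for epithelium, 1 of 5 for lymphoid and plasma cells, 2 of 5 for granulocytes and mast cells and 3 of 6 for fibroblasts and endothelium were detected on all arrays, while Sftpc, Sftpb, Cd3e, Elane, Col1a1 and Col1a2 were on none. The T cell gene Cd3d was well above background on 3 of the 4 arrays, at a mean level of -3.88. Those detected included Foxj1, Nkg7, Camp, Pecam1, Cdh5 and Vwf, named after their values were seen, and S100a8. In this order their mean levels were -2.87, -1.20, 2.11, 0.23, -4.11, 2.79 and -1.46. The part of other cells in the levels below was not tested.

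**Figure D2:**
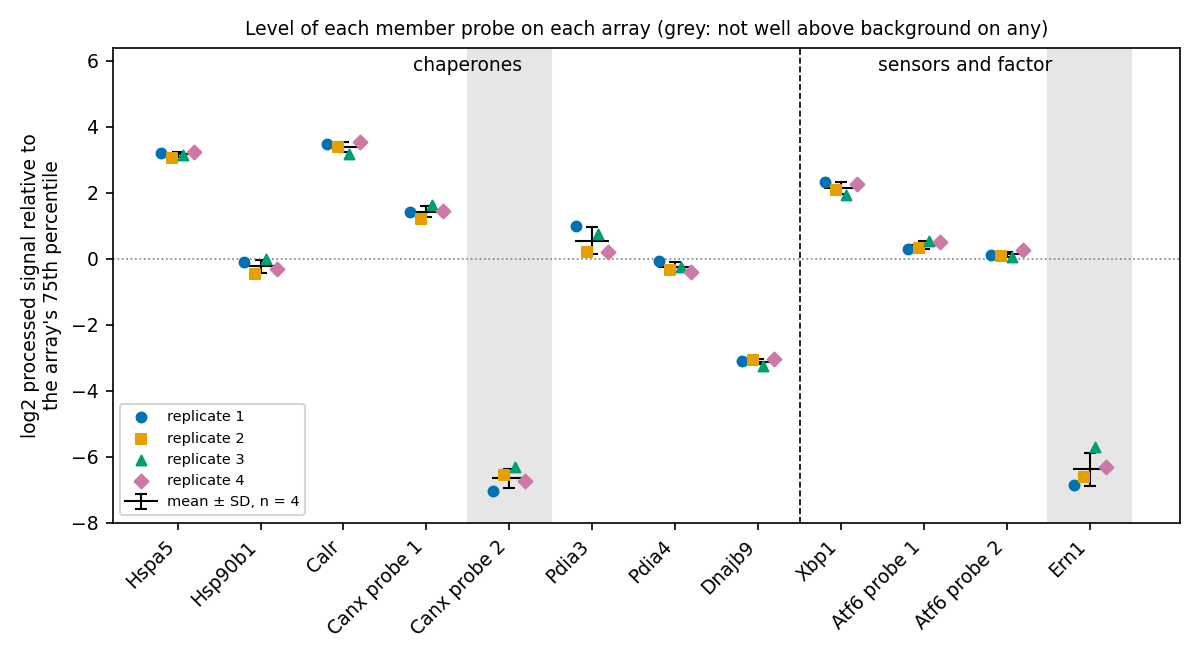
Level of each of the 12 member probes on each array, as log2 of the processed signal relative to the array's 75th percentile (dotted line at 0). Points are the 4 replicates, black bars the mean ± SD (n = 4), and grey columns mark the probes of Canx and Ern1 that missed the detection flag everywhere.

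Hspa5 codes for BiP, the Hsp70 chaperone of the ER lumen, which also holds the UPR sensors inactive. Its level was 3.20, 3.07, 3.16 and 3.24 on replicates 1 to 4, a mean of 3.17 ± 0.07 (SD, n = 4). The 4 cultures thus differed by 1.13-fold from the lowest to the highest. Its processed signal was 4011, 2912, 4957 and 3919 intensity units on the 4 arrays before scaling.

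Hspa5 was measured by 1 probe printed on 10 spots of every array, and its precision within an array can be read directly. The SD between spots was 0.16, 0.05, 0.06 and 0.07 on replicates 1 to 4. Replicate 1 therefore gave the least even spots. Earlier results of these arrays had shown low values at columns 1 to 72 of replicate 1, where 4 of the Hspa5 spots lie. On replicate 1 these 4 spots had a mean of 3.06 and ran from 2.85 to 3.27, while the 6 spots beyond column 72 had a mean of 3.30 and ran from 3.25 to 3.37. On replicates 2, 3 and 4 the means of the first columns were 3.09, 3.20 and 3.19, and those beyond column 72 were 3.06, 3.14 and 3.28. From the spots beyond column 72 alone, Hspa5 lay at 3.19 ± 0.11.

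**Figure D3:**
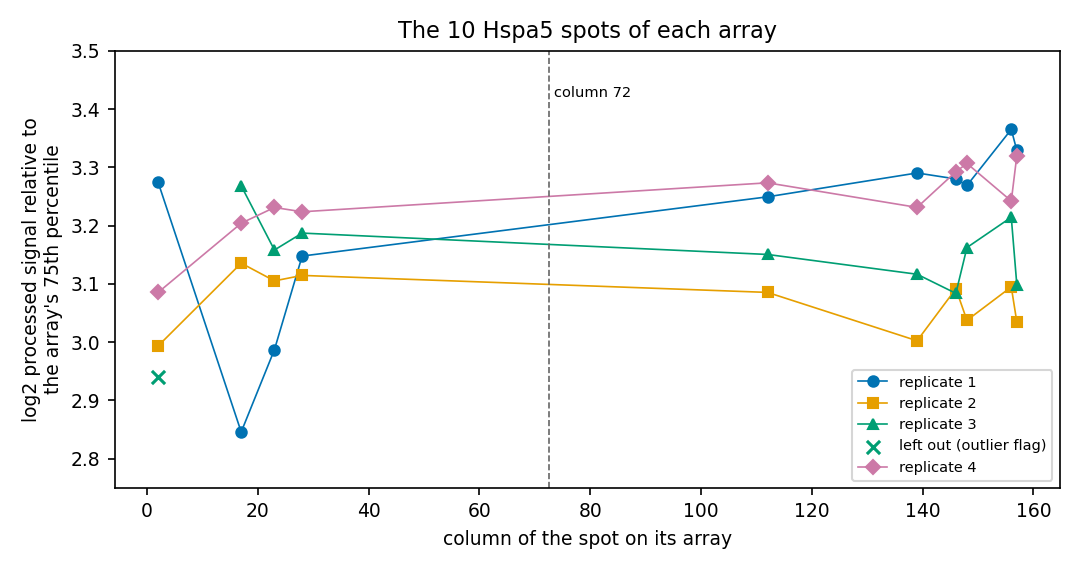
Level of each of the 10 Hspa5 spots on each array against the column in which it was printed, with a dashed line at column 72. The lowest spots of replicate 1 lie to the left of that line, at 2.85 and above, and its 6 spots to the right run from 3.25 to 3.37. The cross is 1 spot of replicate 3 that was left out for its outlier flag.

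Hsp90b1 codes for GRP94, the Hsp90 chaperone of the ER, which folds integrins and Toll-like receptors. Its level was -0.11, -0.45, -0.01 and -0.32 on replicates 1 to 4, a mean of -0.23 ± 0.20 (SD, n = 4). Replicates 1 and 3 were the higher ones and replicate 2 the lowest, with a range of 1.36-fold. Its probe has 2 spots an array, 1 of them at column 7, and on replicate 1 they read -0.24 there and 0.02 at column 81. On the other arrays the spot at column 7 was also the lower one, at -0.47, -0.06 and -0.35 against -0.44, 0.03 and -0.29.

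Calr and Canx code for calreticulin and calnexin, the soluble and the membrane-bound chaperone that bind glycoproteins through their sugars. Calr lay at 3.47, 3.40, 3.19 and 3.55 on replicates 1 to 4, a mean of 3.40 ± 0.15 (SD, n = 4), with replicate 3 the lowest. The brighter probe of Canx lay at 1.42, 1.22, 1.62 and 1.45, a mean of 1.43 ± 0.16, with replicate 2 the lowest and replicate 3 the highest. So with this scaling replicate 3 was the low array for one lectin chaperone and the high array for the other. With quantile scaling the SD of Calr was 0.09 and that of Canx 0.21. Canx also has a second probe, at column 45, assigned by the file to the same transcript, that was not well above background on any array. Its processed signal was 3.31, 3.67, 6.94 and 3.89 intensity units, against 1156, 808, 1706 and 1128 for the first. The detection of Canx thus rests on 1 of its 2 probes. The probe sequences were not used here.

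Pdia3 and Pdia4 code for ERp57 and ERp72, protein disulfide isomerases, of which the first works together with calreticulin and calnexin. Pdia3 had the widest spread of the members detected. It lay at 1.01, 0.20, 0.76 and 0.20 on replicates 1 to 4, a mean of 0.54 ± 0.41 (SD, n = 4). Replicates 1 and 3 were high and replicates 2 and 4 low, with a range of 1.75-fold. The processed signals behind these levels were 869, 399, 942 and 476 intensity units, all from 1 spot an array at column 94, outside the first 72 columns. Pdia4 lay at -0.05, -0.33, -0.24 and -0.41, a mean of -0.26 ± 0.15, with replicate 1 the highest and replicate 4 the lowest.

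Dnajb9 codes for ERdj4, a J-domain partner of BiP that is known as a target of XBP1 and that returns BiP to IRE1. Its processed signals were 50.1, 41.0, 58.6 and 50.1 intensity units. Its level was -3.11, -3.08, -3.24 and -3.05 on replicates 1 to 4, a mean of -3.12 ± 0.09 (SD, n = 4). All 4 cultures lay within 1.14-fold of each other. With normexp background correction the level was -2.08 ± 0.16, a wider spread. The scanner software's own relative error for this spot was 11.6% to 12.9%, against 10.0% to 10.1% for the other detected member probes.

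Of the sensor genes Atf6 and Ern1 and the factor gene Xbp1, only Ern1 was not well above background. Xbp1 lay at 2.31, 2.07, 1.94 and 2.28 on replicates 1 to 4, a mean of 2.15 ± 0.18 (SD, n = 4), with replicate 3 the lowest. Its probe is assigned by accession to 1 transcript, and splicing of Xbp1 by IRE1 was not tested. Atf6 has 2 probes, assigned to different transcripts, and both were detected on all arrays. The brighter one lay at 0.29, 0.32, 0.54 and 0.52, a mean of 0.42 ± 0.13, and the other at 0.12, 0.08, 0.07 and 0.26, a mean of 0.13 ± 0.09. The first was higher on replicates 3 and 4 than on 1 and 2, while the second was highest on replicate 4 and lowest on replicate 3. The brighter probe lies at column 48 and the other at column 155.

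Ern1, which codes for the sensor kinase and endonuclease IRE1, has 1 probe, and its signal was not well above background on any array. Its spot lies at column 45, within the first 72 columns, where low values had been seen on replicate 1. The processed signal was 3.73, 3.52, 10.6 and 5.16 intensity units on replicates 1 to 4. The software's error for these spots was 101% and 101% of the signal on replicates 1 and 2, 35.3% on replicate 3 and 68.9% on replicate 4. A more lenient flag, which asks only for a signal significantly above 0, was set on replicates 3 and 4. With 1 probe, an absent transcript and a probe that binds poorly cannot be told apart, and the second Canx probe shows that a probe of a detected gene can read as dim. The third sensor gene, Eif2ak3, was detected on all 4 arrays by the brighter of its 2 probes alone. That probe lay at -2.13 ± 0.18 (SD, n = 4), with -2.37, -2.17, -2.01 and -1.98 on replicates 1 to 4. Ern2, the relative of Ern1 known from gut and airway epithelium, was not well above background.

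Each gene's variance over the 4 arrays was tested against the variance usual at its level, limma's prior variance, fitted to the 7570 genes whose brightest probe was detected on all arrays. At an adjusted p under 0.05 it called 39 of them (0.515%), and at an unadjusted p under 0.05 505 (6.67%). Of the 9 members that could enter, 0 were called and 1 had an unadjusted p under 0.05. This was Pdia3, whose SD was 2.56 times the prior SD of 0.16 at its level. Its adjusted p was 0.161 by limma's prior variance. For the other 8 the adjusted p lay between 0.991 and 0.999. Hspa5 and Dnajb9 had the lowest ratios, with SDs 0.46 and 0.32 times the prior SD. The Hspa5 level averages 10 spots an array, and from its spots beyond column 72 alone the SD was 0.11. For Dnajb9, which was dim, the prior SD was 0.26. The part of spot number and level in these ratios was not tested. The median SD of the 9 members was 0.15, and of all tested genes 0.16. As a count over 9 genes, 1 unadjusted p under 0.05 is no result about the members, and the test shows no gene to be constant. With another background correction, normexp, Pdia3 was called (adjusted p = 0.00597), in a fit that called 206 genes in all. When only spots beyond column 72 were tested it was called as well (adjusted p = 0.0314). Its own values were the same there, and only the number of genes tested and the prior differed.

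**Figure D4:**
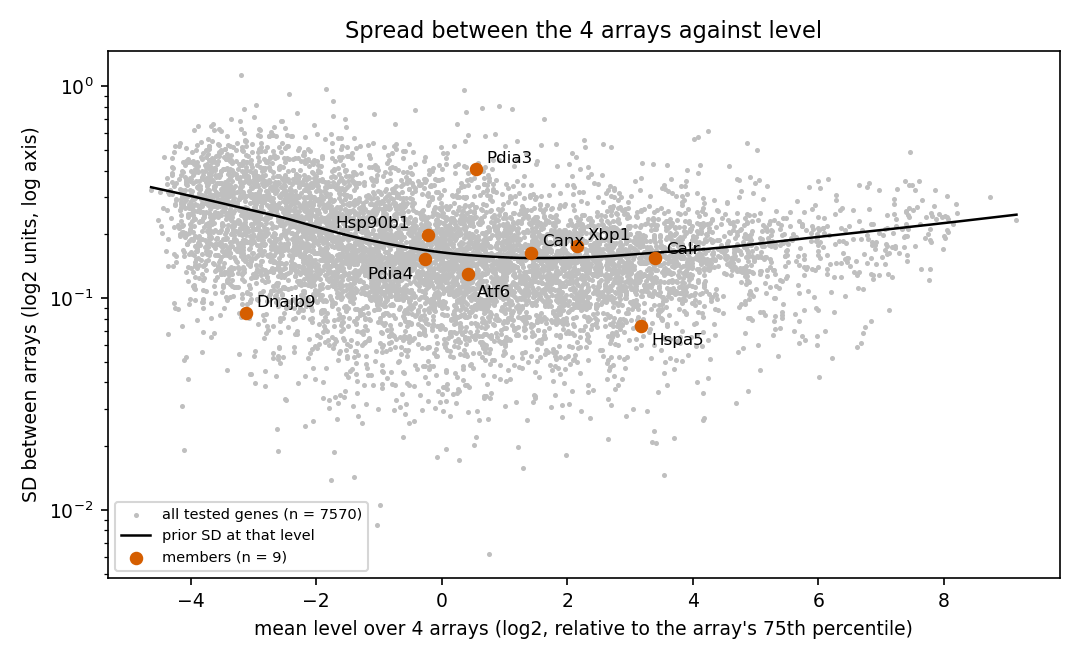
SD between the 4 arrays (log axis) against the mean level of each gene, for 7570 genes (grey) and the 9 detected members (orange), with the prior SD at each level as a line. Pdia3 lies well above the line, Hspa5 and Dnajb9 lie below it, and the other 6 members lie near it.

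Whether the members moved together between the cultures was not tested, and their deviations are described here. Against each gene's own mean of the 4 arrays, 7, 2, 5 and 6 of the 9 members were above it on replicates 1 to 4. Scaling left a median deviation of 0.00, 0.02, -0.08 and 0.05 over all tested genes on replicates 1 to 4. Relative to these, 7, 1, 6 and 5 of the 9 members were above. The 7 chaperones had median deviations of 0.06, -0.10, 0.02 and 0.02, with 6, 2, 4 and 4 of them above their own mean. Atf6 and Xbp1 had opposite signs on replicate 1 (-0.12 and 0.16) and on replicate 3 (0.12 and -0.21), and the same sign on replicates 2 and 4. This holds for the brighter Atf6 probe, at column 48, and the other Atf6 probe deviated by -0.01 and -0.07 on replicates 1 and 3, on the latter with the sign of Xbp1. Replicate 2 was the array on which most chaperones were low, with Hspa5, Hsp90b1 and Canx at their lowest there, while Calr, Dnajb9 and Xbp1 were at their lowest on replicate 3. Hsp90b1, Canx and Pdia3 lay 0.20 to 0.22 above their mean on replicate 3, where Calr lay 0.21 below. The bright genes Cd68 and Sec61g were also lowest on replicate 3, and the dimmer Hspa13 and Stt3a were highest there. These 4 were named for this contrast after their values were seen. Whether the deviations on replicate 3 depend on a gene's level was not tested. All deviations here are values of 4 arrays and carry no test.

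**Figure D5:**
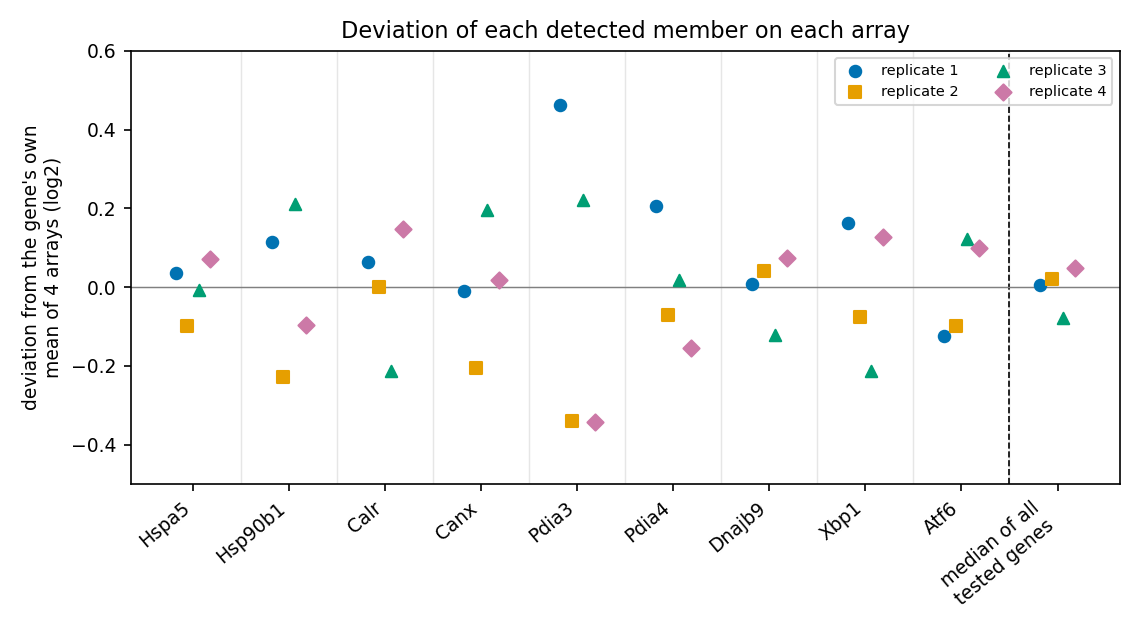
Deviation of each of the 9 detected members on each array from the gene's own mean of 4 arrays, with the median of all tested genes at the right. Pdia3 spans from -0.34 on replicates 2 and 4 to 0.46 on replicate 1, and Calr and Xbp1 are lowest on replicate 3, where Hsp90b1, Canx and Pdia3 are above their mean.

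Genes that work beside the members in the ER were read in 5 lists, of which 74 of 82 measured genes were detected on all arrays. Of these 74, 0 were called as variable, against 0.515% of all tested genes. With so low a share, 0 calls in a list is no result about that list. Of 20 measured folding helpers, 17 were detected, where the share over all genes was 45.7%, and 0 of these 17 were called as variable. Among them Pdia6 and P4hb, both disulfide isomerases, lay at 2.99 ± 0.12 and 4.02 ± 0.10 (SD, n = 4), and Hyou1, an ER chaperone that releases nucleotide from BiP, at 2.27 ± 0.16. The detected helper with the largest SD was Hspa13, an Hsp70 relative, at -1.97 ± 0.43 (limma prior variance, adjusted p = 0.493). It was highest on replicate 3 at -1.40 and lowest on replicate 4 at -2.43. Ero1b, Pdia5 and Fkbp14 were not well above background. Ero1a, the other oxidase that recharges disulfide isomerases, was detected at -0.21 ± 0.09, a gene named for this contrast after its values were seen.

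Of 16 measured genes of UPR signalling, 13 were detected on all arrays and 0 of these were called. The general shares were 45.7% for detection, over all measured genes, and 0.515% for calls, over all tested genes. At so low a call share, 0 calls among 13 genes is no result about this list. Atf6b, the relative of Atf6, lay at 0.01 ± 0.11 (SD, n = 4). Mbtps1, the first of the proteases that cut ATF6 in the Golgi, lay at 1.75 ± 0.08 by the brighter of its 2 detected probes and at -0.54 ± 0.14 as the mean of both, while Mbtps2, the other protease, was not well above background with either of its 2 probes. Nfyc, a subunit of the factor that binds the CCAAT box of the ER stress element, had the largest SD among those detected, at -1.79 ± 0.24. Its partner Nfyb was not well above background with either of its 2 probes. On replicate 3 only 1 of the 13 genes lay above its own mean, with a median deviation of -0.13, where all tested genes had -0.08.

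Genes that remove misfolded protein from the ER were detected in 17 of 18 cases, against 45.7% of all genes, and 1, Erlec1, on 3 arrays. Herpud1, a known UPR target that assembles the degradation complex, lay at 3.23 ± 0.26 (SD, n = 4), the largest SD among the genes of this list detected on all arrays. It read 3.05, 3.38, 2.96 and 3.52 on replicates 1 to 4. Sel1l and Syvn1, the adaptor and the ubiquitin ligase of that complex, lay at -1.63 ± 0.14 and 1.89 ± 0.09. Of 18 measured genes of the translocon and of glycan transfer and trimming, 17 were detected, against the same 45.7%. The translocon channel genes Sec61a1, Sec61b and Sec61g lay at 4.50 ± 0.20, 2.37 ± 0.14 and 5.09 ± 0.16, and Stt3a, which transfers glycans, had the largest SD of those detected, at -3.46 ± 0.41. Uggt1, the enzyme that returns unfolded glycoproteins to calnexin and calreticulin, was not well above background. In both lists 0 of 17 tested genes were called, against 0.515% of all tested genes.

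Genes of the ATF4 arm, which PERK and other kinases feed, were all 10 detected on all 4 arrays and 0 were called. The general shares to set beside these counts are again 45.7% for detection and 0.515% for calls. On replicate 1 only 2 of the 10 lay above their own mean, with a median deviation of -0.18, and on replicate 2 it was 9 of 10, with 0.15. The chaperones had medians of 0.06 and -0.10 on these arrays, and the difference was not tested. Trib3, an ATF4 target, had the largest SD of the named genes here (limma prior variance, adjusted p = 0.477). It read 2.23, 2.88, 2.47 and 2.85 on replicates 1 to 4, lowest on replicate 1. Ddit3, which codes for CHOP, read 2.05, 2.60, 2.26 and 2.46, also lowest on replicate 1, and Atf4 lay at 4.97 ± 0.13 (SD, n = 4) and was lowest there as well.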

How the data were processed

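Per the labels' protocols, 100 ng of RNA with an integrity number above 7.5 was copied into Cy3-labelled cRNA. The deposited intensity values are the processed signals that Agilent Feature Extraction wrote (version 11.0.1.1 per the submitters' processing notes), and their 75th percentiles differ between arrays. Deposited flags, per the file headers, a 0 or 1 in each spot's row under other columns, gave outliers and detection. Each array had 58717 non-control spots, of which 634 to 669 with outlier flags were left out. The 75th percentile of each array was subtracted after taking log2 of its signals. Spots of 1 probe were averaged. Of 45598 probes, 21109 were named through unversioned accessions by the RefSeq table of GRCr8. The array grid names an older build, so no probe positions are given. The brightest probe stood for a gene. Detection needed the flag on over 0.5 of a probe's spots, and a gene counted where 1 probe passed on all 4 arrays.

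Each gene's variance was divided by limma's (3.58.1, R 4.3.3) trended, robust prior variance (24.3 prior degrees of freedom), with the upper tail of F adjusted over 7570 genes by the Benjamini-Hochberg method. The test was tried on data simulated from its own fitted prior, which cannot show how well that prior describes these arrays. The members, lists and tests were chosen with earlier results of these data known. The text names every member, the first 2 markers of each class, and of each list the first 3 measured genes, the one with the largest SD, any called, and up to 6 not detected. Nothing says more of the replicates than that they are biological. The p-values set a gene's spread between these 4 samples against the spread usual at its level. The number of arrays limits the precision. Alternatives were normexp (offset 50), quantile and median scaling, outlying spots kept, other priors, filters and probes, a lenient flag and each replicate left out. Spots beyond column 72 alone were added after seeing the data.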

Additional observations from a re-analysis of the deposited data

How the results depend on the processing

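Each change to detection was made on its own. Detection of 9 of 10 members held under the lenient flag, with 1 array sufficing for the main flag, and with the brightest probe alone. It also held with outlying spots kept and without each replicate, and Ern1 was the missing gene each time. Over all 16579 genes, 9116 were detected under the lenient flag and 8583 with 1 array sufficing, against 7570 in the main setting. The count of variable members was 0, except 1 (Pdia3) with normexp and 1 (Pdia3) with spots beyond column 72 alone, an alternative chosen after seeing the data, where fewer genes (4963) were tested. Without each replicate it ranged from 0 to 0. The count over all genes was 39, and 206 with normexp, 0 with quantile scaling, 0 with a prior without trend (by limma, 449 and 467 genes then had unadjusted p-values under 0.05), 9 with a prior that was not robust, 127 with no filter on dim genes, 63 when every detected probe was tested and 21 beyond column 72. It ranged from 10 to 77 without each replicate, with 32, 77, 10 and 16 without replicates 1 to 4. The causes were not tested. The lowest adjusted p of any member by limma's prior variance ran from 0.00597 to 0.756 over all alternatives. Scaling to the median of detected probes raised all levels, Hspa5 to 3.73, and Hsp90b1 and Pdia4 changed side of 0, from -0.23 to 0.34 and from -0.26 to 0.30, as the reference point changed. With outlying spots kept Hspa5 lay at 3.01, and with normexp at 2.92, where Dnajb9 lay at -2.08. No paired analysis was possible because there is 1 group. With 4 arrays and mostly 1 spot a gene, small differences between cultures were not detectable.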

Other observations

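The genes whose start windows hold the ER stress element, found by sequence alone, were looked up on the arrays. Of the 21 genes in the whole RefSeq table, 5 are the members named above and 4 stand on the lists of the ER machinery, the co-chaperone gene Dnajc3, Creld2, Ero1b and the degradation gene Derl3. Of the 21, 16 were measured, and 13 of these were detected on all 4 arrays. Leaving out the members, 8 of 11 measured genes were detected, against 45.7% of all genes. Among the 8 were Zfand2a, a stress-induced zinc finger gene, at 3.05 ± 0.11 (SD, n = 4), and the survivin gene Birc5 at 2.67 ± 0.05, which are not known as ER chaperones. Dnajc3 lay at -0.94 ± 0.26, Creld2 at 0.28 ± 0.15 and Derl3 at -3.67 ± 0.19. The 2 measured genes listed with no array above background were Ero1b and Zfp57, and Foxd4 was detected on 2 arrays.

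ER stress element II was found in 15 windows, among them those of 3 list genes, Hyou1, Dnajb11 and Herpud1. Of its 12 measured genes 7 were detected on all 4 arrays. The general share was 45.7%, and whether these 12 genes differ from it was not tested. Nucb1, a calcium-binding protein gene of the Golgi, lay at 1.57 ± 0.08 (SD, n = 4). All these genes were named after the search, by the motif and with their values in view.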
